A study of Mus musculus with 6 samples.

Results

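The genes described here are Neurog3 and 9 transcription factor genes that act with or after it when endocrine cells form in the pancreas. They are Neurod1, Neurod2, Pax4, Nkx2-2, Insm1, Myt1, St18, Rfx6 and Fev, chosen by gene symbol, and all 10 had a row among the 37761 genes of the deposited table. RNA was sequenced from the whole pancreas of embryos at e15.5, with 3 libraries, and from islets, the endocrine clusters of the pancreas, freed with collagenase from mice of 12 weeks, with 3 libraries as well. Both groups were wild type, and the labels name no treatment, strain or sex. The groups differ at once in age, in tissue and in how the material was isolated, and these cannot be told apart. The labels do not say that the libraries came from separate animals. Each p-value therefore rests on a spread that may be technical.

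The basic helix-loop-helix (bHLH) factor Neurog3 is switched on for a short time in scattered epithelial cells of the fetal pancreas and commits them to the endocrine lineage. Notch signalling through the repressor Hes1 holds it off in neighbouring cells. Neurog3 activates a set of factors, some of which stay on in hormone-producing cells, such as Neurod1, Insm1, Nkx2-2 and Rfx6, while others, such as Pax4, mark the passage to particular cell types.

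Each library had between 35059950 and 47346870 reads assigned to genes. Lists of marker genes describe the labelled tissues. The 7 hormone genes listed were Ins1, Ins2, Gcg, Sst, Ppy, Ghrl and Iapp. RPM are reads scaled to the reads assigned in the library. The hormone list took 909 to 1506 RPM of the embryonic group and 105436 to 113994 RPM of the islet group. Of these 7, 6 were called higher in the islets and Ghrl was called lower, where 36.2% of all genes tested were called higher. Gcg had 104749 embryonic reads in all and the next, Iapp, had 8027. For 8 mesenchyme genes the ranges were 4238 to 5455 and 27.6 to 60.1 RPM. For 8 acinar genes they were 2927 to 3613 and 5175 to 13684 RPM, so exocrine RNA was present in both tissues. The acinar genes did not move one way: 4 were called higher in the islets, 3 lower and 1 was not called. Pnlip had 107 embryonic and 318813 islet reads, whereas Rbpjl had 11495 and 89. Values below are the authors' normalized counts, in which 1 read is worth 0.818 to 1.10 depending on the library, and means are given ± SD with n = 3. A log2 fold change compares islets with embryonic pancreas, as a difference of mean log2(value + 1), with the adjusted p of limma-trend over all 21653 genes tested. Whether a gene was lower because fewer cells of a type were present or because each held less RNA cannot be told apart in bulk samples.

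Of the 10 genes, 6 rose and 3 fell in the islets and 1, Fev, was not called. That is 9 called of 10, where 72.8% of all genes tested were called (36.2% as higher and 36.6% as lower), and most genes of either kind differ between these tissues. The median log2 fold change of the 10 was 1.56, beside −0.03 over all genes tested. The values of 9 of the 10 did not overlap between the groups, as was true of 77.1% of genes tested. All 10 passed the filter on low values, Pax4 and Neurod2 through the embryonic libraries alone. Both are among the 3 that fell, and a gene that passes in this way could hardly be called otherwise.

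The proneural bHLH genes split. Neurog3 (ENSMUSG00000044312.4), a single-exon gene on the plus strand of chromosome 10, 62133090 to 62134763 on GRCm38, was at 958, 1419 and 1046 normalized counts in the embryonic libraries and at 95.6, 117 and 157 in the islet libraries. Every embryonic library lay above every islet library, and the islets kept 351 reads of the gene in all. Neurog3 fell 9.27-fold in mean count (log2 fold change −3.21, SE 0.21, adjusted p = 1.4e-06). The opposite-strand gene Fam241b covers 16.3% of its exonic length, and the library kit is not stated to keep strand, so reads there cannot be assigned. Fam241b itself rose from 340.5 ± 96.9 to 765 ± 39.2 (log2 fold change 1.20).

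Neurod1 (chromosome 2, 79452521 to 79456751, minus strand), a bHLH activator of insulin and other endocrine genes, went the other way. It was at 459, 540.5 and 442 normalized counts in the embryonic libraries and at 5569, 5469 and 5429 in the islet libraries. The islet values lay within a narrow band far above the embryonic ones, an 11.4-fold rise (log2 fold change 3.52, SE 0.10, adjusted p = 1.4e-08). Of its exonic length 13.0% is shared with Cerkl on the same strand and Gm26755 on the other. Cerkl rose from 47.0 ± 7.70 to 949 ± 58.0 (log2 fold change 4.32), and Gm26755 had 22 reads in the islets and 0 in the embryonic pancreas.

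Neurod2 (chromosome 11, 98325415 to 98329648, minus strand), a close relative of Neurod1 best known from neurons of the forebrain, had reads in the embryonic libraries only. It was at 61.5, 118 and 89.9 normalized counts there, 287 reads in all, and had no read in any islet library. A count of 0 allows up to 3 reads over the islet group, so Neurod2 was at least 84.6-fold lower there (limma-trend adjusted p = 4.0e-07). Its islet values had no spread and it passed the filter through the embryonic libraries alone, so this p adds no support to the reads.

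The neuronal marker list moved in both directions beside Neurod2. Its 11 genes took 125 to 157 RPM before birth and 153 to 180 RPM in the islets. Of 10 tested, 2 were called higher, 5 lower and 3 were not called, where 36.2% of all genes tested were called higher and 36.6% lower. Hand2, a bHLH factor of sympathetic neurons and mesenchyme, fell from 1079.6 ± 40.4 to 31.9 ± 11.2 (log2 fold change −5.10, 19.6% of its exonic length overlapping other annotation), and Stmn2, a tubulin-binding protein of growing axons, from 836 ± 344 to 86.5 ± 35.5 (log2 fold change −3.25). Th, tyrosine hydroxylase, rose from 69.9 ± 25.2 to 893 ± 104 (log2 fold change 3.70). Schwann cell genes took 131 to 150 and 19.3 to 31.6 RPM, with 5 of 6 lower and 1 higher. No gene of either list was at 0 in a whole group. The part of nerve cells in the Neurod2 result was not tested.

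The sequences before the start sites are shown for the 3 bHLH genes and for Nkx2-2, since Neurog3 and its relatives bind the E-box CANNTG. RefSeq promoters on GRCm38.p6 were given for 7 of the 10 genes. Pax4, Insm1 and St18 had no entry. The 250 bases upstream of each start are printed on the gene's strand, with every CANNTG in capitals: chr10:62132840-62133089 (plus strand) for Neurog3, chr11:98329646-98329895 (minus strand) for Neurod2, chr2:147186403-147186652 (minus strand) for Nkx2-2 and chr2:79456637-79456886 (minus strand) for Neurod1.
Neurog3: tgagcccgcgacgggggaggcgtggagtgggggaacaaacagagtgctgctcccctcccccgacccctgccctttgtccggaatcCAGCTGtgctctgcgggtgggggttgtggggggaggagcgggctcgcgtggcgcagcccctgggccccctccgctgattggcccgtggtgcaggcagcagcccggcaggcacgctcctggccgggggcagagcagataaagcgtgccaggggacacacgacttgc
Neurod2: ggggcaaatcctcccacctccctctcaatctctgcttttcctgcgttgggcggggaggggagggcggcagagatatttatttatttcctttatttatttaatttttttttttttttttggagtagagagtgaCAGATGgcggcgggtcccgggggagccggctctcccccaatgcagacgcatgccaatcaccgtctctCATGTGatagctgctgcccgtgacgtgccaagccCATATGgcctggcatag
Nkx2-2: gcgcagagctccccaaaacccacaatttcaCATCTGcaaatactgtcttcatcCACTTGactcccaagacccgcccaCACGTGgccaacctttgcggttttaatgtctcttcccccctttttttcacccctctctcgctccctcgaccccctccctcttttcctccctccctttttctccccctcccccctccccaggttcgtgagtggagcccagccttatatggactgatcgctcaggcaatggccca
Neurod1: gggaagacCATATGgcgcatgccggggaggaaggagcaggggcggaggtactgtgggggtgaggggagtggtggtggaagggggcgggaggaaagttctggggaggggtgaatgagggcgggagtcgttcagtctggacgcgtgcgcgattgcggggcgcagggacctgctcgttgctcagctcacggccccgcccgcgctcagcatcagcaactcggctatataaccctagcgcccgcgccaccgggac
The letters CANNTG, which read as CANNTG on both strands, were in 5 of the 7 genes' promoters, and 66.2% of all 32851 RefSeq promoters of this length hold them. The units differ: the first counts genes, with Myt1 counted if any of its 3 promoters matched, and the second counts single promoters. Neurog3 had 1 match, 165 bases before the start, and Neurod1 had 1, at 242 bases. Neurod2 had 3 matches, at 118, 51 and 17 bases, and Nkx2-2 had 3, at 220, 197 and 173 bases. The form CAGATG, searched on both strands, was the match at 118 bases in Neurod2 and, read on the other strand, the match at 220 bases in Nkx2-2. It was in 14.4% of all promoters. The form is contained in CANNTG and is no separate match. Rfx6 and Fev had no CANNTG in this window. The windows of Nkx2-2 and Rfx6 lie wholly inside the annotated spans of these genes, before an internal start. For these 2 genes the bases before the outermost starts were not searched. Myt1 had 3 annotated starts with 0, 2 and 1 matches. The windows with matches lie inside its span, so Myt1 is among the 5 genes through internal starts alone. The Neurod1 window lies partly inside the annotated gene, which ends at 79456751. Those of Neurod2 and Fev overlap their genes by a short stretch. Whether the number of matches goes with the direction of a gene's change was not tested. A match is a string of letters and no measured binding site.

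The 2 homeodomain genes differed in direction. Pax4 (chromosome 6, 28442334 to 28449353, minus strand), a paired-class repressor of early beta and delta cells, was at 198, 250.4 and 182 normalized counts in the embryonic libraries and at 0, 0 and 3.22 in the islet libraries. Only the third islet library held any read, 3 in all against 669 in the embryonic pancreas. The fall was 197-fold per unit of depth, with a 95% counting interval of 67.2 to 959 (limma-trend adjusted p = 4.4e-06). Pax4 too passed the filter through the embryonic libraries alone, so its p adds no support to the reads.

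Nkx2-2 (chromosome 2, 147177546 to 147194243, minus strand), an NK-class factor needed for beta cell identity, was at 1003, 1576 and 1164 normalized counts in the embryonic libraries and at 2955, 2725 and 3222 in the islets. The groups did not overlap, and Nkx2-2 had the smallest of the 6 rises, 2.38-fold (log2 fold change 1.27, SE 0.16, adjusted p = 8.4e-05). Its antisense lncRNA Nkx2-2os, on the plus strand from 147184083 to 147331681, fell from 37.3 ± 13.5 to 4.94 ± 3.86. It was at 22.1, 48.0 and 41.7 in the embryonic libraries and at 8.79, 4.96 and 1.07 in the islets (log2 fold change −2.88, SE 0.58, adjusted p = 0.0017). Nkx2-2 thus rose while Nkx2-2os fell. Another antisense lncRNA within the span of Nkx2-2, 6430503K07Rik, was more abundant than Nkx2-2os in both groups (152 ± 14.4 and 169 ± 8.77) and was not called. Nkx2-2 and Nkx2-2os share 9.67% of the exonic length of Nkx2-2, where reads cannot be assigned without strand. The name Nkx2-2os is also carried by a short RNA gene inside the lncRNA.

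All 3 zinc finger genes rose. St18 (chromosome 1, 6487231 to 6860940, plus strand), a relative of Myt1 also called Myt3, had the largest rise of the 10 genes. It went from 789, 1097 and 794 normalized counts in the embryonic libraries to 13341, 12336 and 13044 in the islets, 14.5-fold (log2 fold change 3.87, SE 0.13, adjusted p = 3.2e-08). By log2 fold change 676 of the 21653 genes tested rose more.

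Insm1 (chromosome 2, 146221921 to 146225020, plus strand), a repressor that recruits histone deacetylases and the demethylase Kdm1a, was at 752, 1196 and 868 normalized counts in the embryonic libraries. In islets it was at 7082, 7519 and 9016, highest in the third library, an 8.39-fold rise (log2 fold change 3.09, SE 0.17, adjusted p = 4.4e-07). Myt1 (chromosome 2, 181763332 to 181827797, plus strand), which promotes endocrine differentiation beside Neurog3, was at 1123, 1557 and 1162 and then at 4005, 4398 and 5413. Its rise, 3.60-fold, was smaller than those of Insm1 and St18 (log2 fold change 1.85, SE 0.15, adjusted p = 5.9e-06). The ratio of St18 to Myt1 reads per kb of exon was 0.781, 0.784 and 0.760 before birth, whereas the islet libraries had 3.71, 3.12 and 2.68, so Myt1 was the higher of the pair in every embryonic library and St18 in every islet library.

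Rfx6 rose and Fev was not called. Rfx6 (chromosome 10, 51677756 to 51730432, plus strand), a winged-helix factor required for most islet cell types, was at 789.6, 1003 and 794 normalized counts in the embryonic libraries and at 4399, 4765 and 4911 in the islets. The rise was 5.44-fold (log2 fold change 2.45, SE 0.11, adjusted p = 1.5e-07), with no overlap between the groups. Fev (chromosome 1, 74881509 to 74885419, minus strand), an ETS factor of endocrine precursors and of serotonin neurons, was at 83.6, 109.6 and 75.2 and then at 81.3, 62.5 and 62.2. It was the single gene of the 10 whose groups overlapped (log2 fold change −0.37, SE 0.23, adjusted p = 0.18). In the authors' deposited table Fev had an adjusted p of 0.278. Leaving the 20 most abundant genes of each group out of the scaling, which moved the median of all genes by −0.23, made Fev a called fall (−0.60, adjusted p = 0.037). Quantile normalization gave it the opposite sign (0.10, adjusted p = 0.73), so that no direction holds for it.

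**Figure D1:**
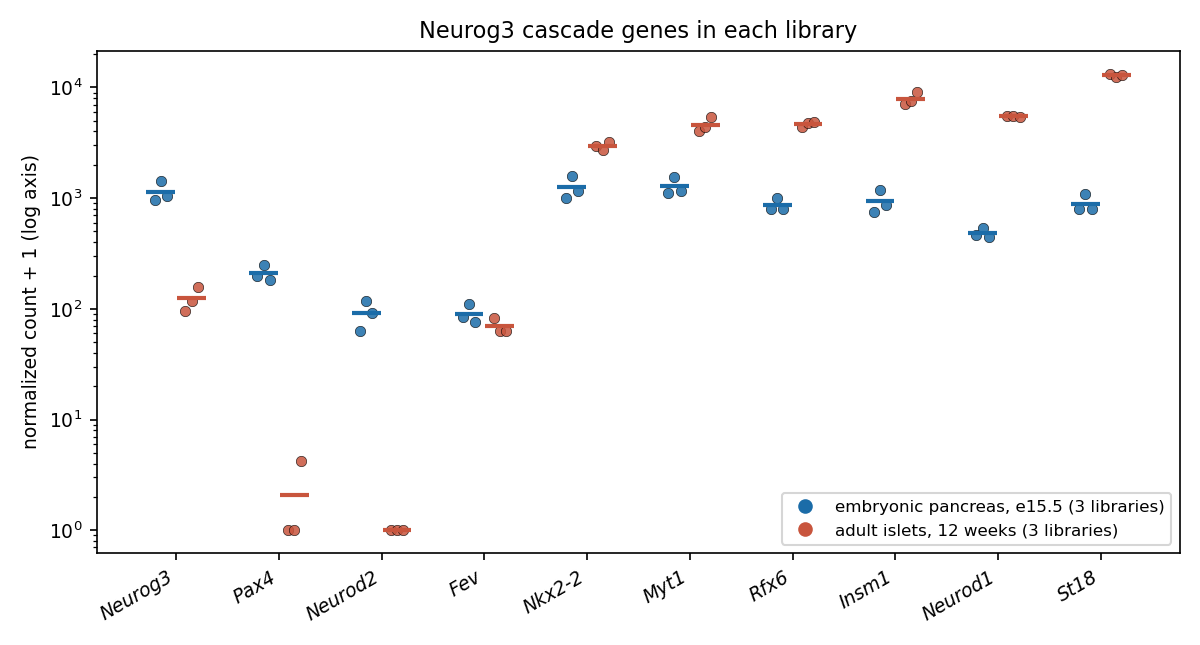
Normalized count + 1 on a log axis for the 10 genes in each of 3 embryonic (blue) and 3 islet (red) libraries, with bars at the group means. Neurog3, Pax4 and Neurod2 lie lower in the islets, Fev overlaps, and the other 6 lie higher, with St18 at 12336 to 13341 normalized counts.

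Within the embryonic group the second library was the highest of the 3 for 10 of the 10 genes, where 51.4% of all genes tested were highest in that library. Its value was 1.20 to 1.56 times the mean of the other 2, with a median of 1.38. In the islets the third library was highest for 6 of the 9 genes with a read, and 42.7% of genes tested were highest there. Leaving out the second embryonic library gave log2 fold changes of −3.04 for Neurog3 and 3.60 for Neurod1 and changed no call among the 10.

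Between genes, levels were compared as RPKM, which divides RPM by the kb of exon annotated over all transcripts of a gene. The order of genes depends on this length. In the embryonic pancreas Neurog3 had the highest level of the 10, at 17.0, 22.4 and 19.2. Nkx2-2 followed at 12.4 ± 2.06, Insm1 at 8.67 ± 1.49 and Rfx6 at 6.18 ± 0.39. Myt1 (5.11 ± 0.55) and Neurod1 (5.07 ± 0.14) overlapped, as did Pax4 (4.18 ± 0.36) and St18 (3.96 ± 0.46), while Fev (1.59 ± 0.18) and Neurod2 (0.818 ± 0.212) came last. No other neighbours in this order overlapped. Thus Neurog3 RNA, on this scale, was more abundant than that of any of the factors listed after it. By mean normalized count, not divided by length, Myt1 (1281) and Nkx2-2 (1248) stood above Neurog3 (1141).

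The order was different in the islets. Insm1 led at 53.6 ± 5.36, followed by Neurod1 (42.6 ± 1.71) and St18 (42.3 ± 2.18), which overlapped. Rfx6 stood at 24.7 ± 0.83, Nkx2-2 at 21.8 ± 1.46 and Myt1 at 13.5 ± 1.74. Neurog3 came next at 1.24, 1.49 and 1.92, and Fev at 1.09, 0.823 and 0.790. Only Neurod1 with St18, and Pax4 with Neurod2 at or near 0, overlapped among neighbours. By mean normalized count St18 (12907) stood above Insm1 (7872) in the islets.

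As a share of the summed per-length level of the 10 genes, Neurog3 made up 28.4, 29.3 and 29.0% before birth, whereas its share in the islet libraries was 0.622, 0.760 and 0.922%. Insm1, Neurod1 and St18 together took most of the sum in the islets, with Insm1 at 24.9, 26.4 and 28.7%, Neurod1 at 22.2, 21.8 and 19.6% and St18 at 22.5, 20.8 and 19.9%. The share of Rfx6 ranged from 8.64 to 9.77% before birth and from 12.0 to 12.9% in the islets.

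**Figure D2:**
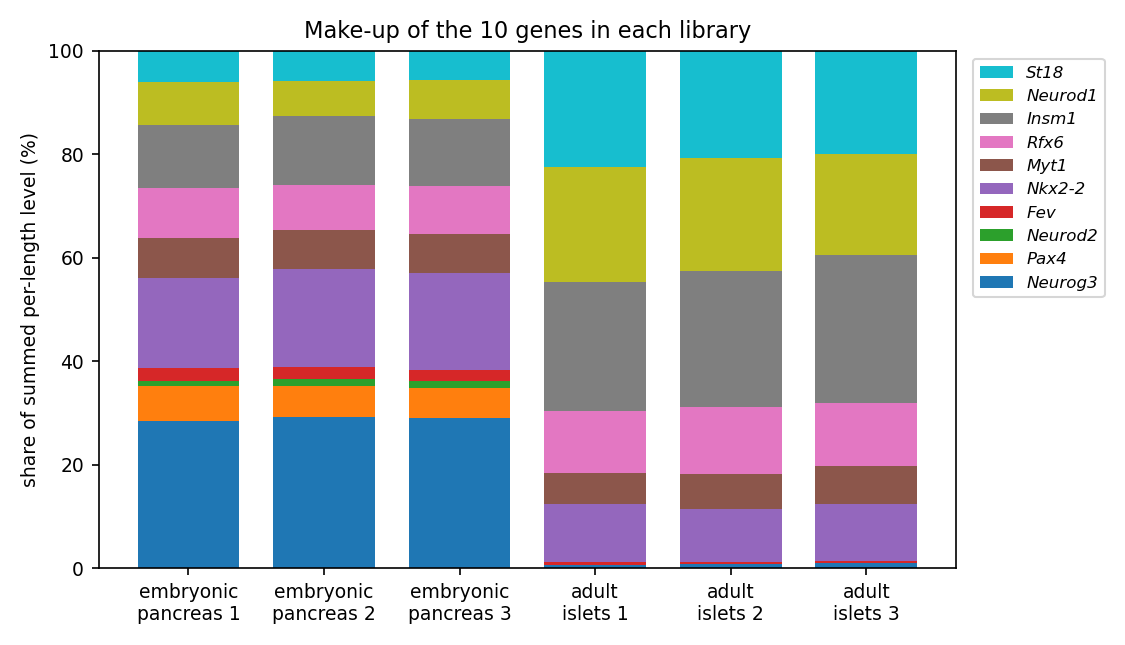
Stacked bars give, for each of the 6 libraries, the share (%) of each gene in the summed level of the 10 genes, in RPKM. Neurog3 (bottom, blue) fills 28.4 to 29.3% of the embryonic bars and under 1% of the islet bars, where Insm1, Neurod1 and St18 fill the most.

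Whole embryonic pancreas and isolated islets hold different shares of endocrine cells. Each gene was therefore also set against Isl1 and Pax6, transcription factor genes expressed across the endocrine lineage. Isl1 rose from 1996, 2721 and 2330.4 to 7926, 7627 and 7377 normalized counts (log2 fold change 1.71), and Pax6 from 1096, 1696 and 1177 to 14431, 14039 and 14527 (log2 fold change 3.46). Since Pax6 rose more than Isl1, by 1.75 on the log2 scale, results against each are given separately as well as against their mean.

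Against the mean of Isl1 and Pax6, 3 genes were higher in the islets, 6 lower and 1 not called, where 93.4% of all genes tested were called, 4.79% as higher and 88.6% as lower. The 3 higher were St18 (1.28), Neurod1 (0.93) and Insm1 (0.50, adjusted p = 0.0036). Rfx6 was not called (−0.14, adjusted p = 0.26). Of the lower ones Neurog3 was at −5.80 (adjusted p = 4.4e-09), Fev at −2.96 (adjusted p = 1.3e-06), Nkx2-2 at −1.32 and Myt1 at −0.74. Pax4 and Neurod2 were also called lower, but with 3 and 0 islet reads their fitted size depends on the pseudocount.

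Against Isl1 alone 4 genes were higher, 5 lower and 1 not called, beside a background of 88.3% called, 8.84% as higher and 79.4% as lower. St18 (2.16), Neurod1 (1.80), Insm1 (1.37) and Rfx6 (0.74) were higher and Nkx2-2 was lower (−0.44, adjusted p = 0.0057). Against Pax6 alone 1 was higher, 8 lower and 1 not called, beside 95.5% called, 2.37% as higher and 93.1% as lower. There St18 was the one above (0.40, adjusted p = 0.0092), Neurod1 was not called (0.05, SE 0.14, adjusted p = 0.73) and Insm1 (−0.38), Rfx6 (−1.01), Myt1 (−1.61) and Nkx2-2 (−2.19) were lower. Myt1 was the gene not called against Isl1 (0.14, SE 0.14, adjusted p = 0.38). So Insm1 and Rfx6 were called higher against Isl1 and lower against Pax6, Myt1 was called lower and Neurod1 higher against 1 of the 2 references each, whereas Neurog3, Pax4, Neurod2, Fev and Nkx2-2 were lower and St18 was higher against both. Against 5 granule genes (Chga, Chgb, Scg3, Ptprn and Pcsk2) all 10 were called lower, beside 99.1% of genes tested called, 0.425% as higher and 98.6% as lower, and St18 was then at −1.89.

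Fev, which did not pass on the authors' scale, thus passed as lower relative to both lineage genes. So did most genes tested, 79.4% against Isl1 and 93.1% against Pax6. Both references rose themselves, so a gene that changed little comes out lower against them. Fev reads per kb were 0.103, 0.0986 and 0.0790 times those of Isl1 before birth, whereas the islet libraries had 0.0251, 0.0201 and 0.0207 times. For Neurog3 the same ratio went from 1.13, 1.23 and 1.06 to 0.0285, 0.0363 and 0.0502. Set against Neurod1, Neurog3 reads per kb were 3.40, 4.28 and 3.86 times as many before birth, whereas the islet libraries had 0.0280, 0.0349 and 0.0470 times. The ratio of Neurod1 to Pax6 was 1.80, 1.37 and 1.61 before birth and 1.65, 1.67 and 1.60 after, the groups overlapping.

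**Figure D3:**
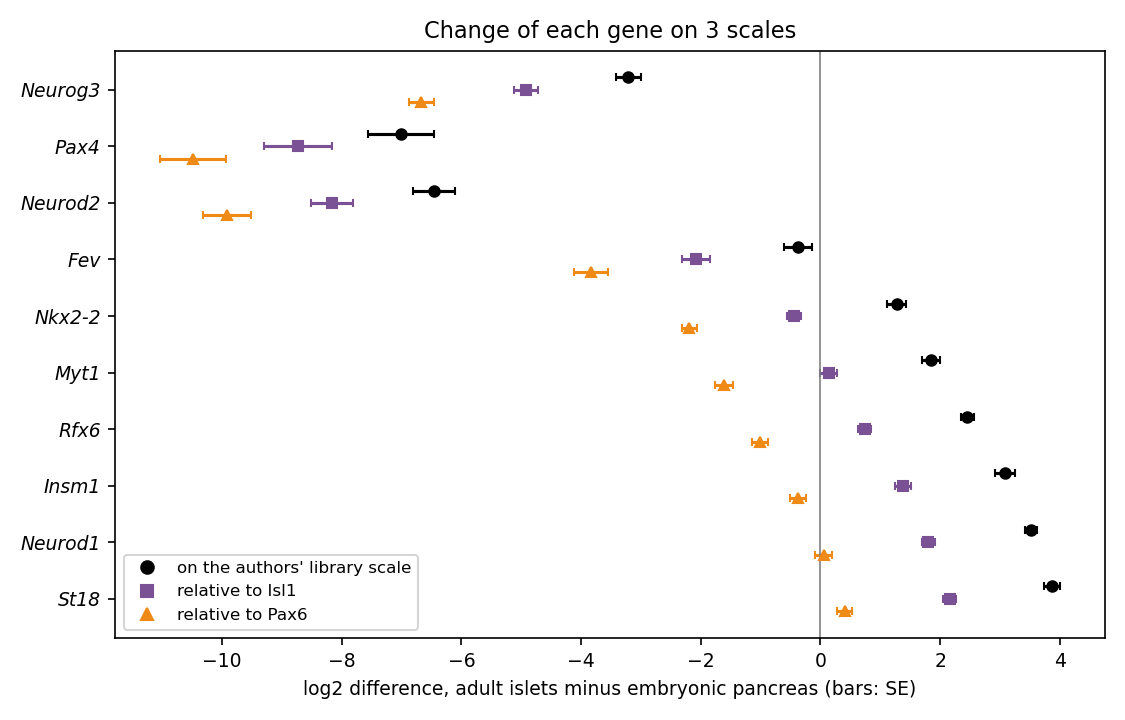
Log2 difference between islets and embryonic pancreas, with SE bars, for each gene on the authors' scale (circles), relative to Isl1 (squares) and relative to Pax6 (triangles). Neurog3, Pax4, Neurod2, Fev and Nkx2-2 lie left of 0 on both relative scales. Fitted sizes for Pax4 and Neurod2 depend on the pseudocount.

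Upstream of Neurog3, factors of the pancreatic epithelium moved both ways. Of 7 genes 5 were higher and 2 lower in the islets, with a median log2 fold change of 1.14. Beside the counts of this list and those below, 36.2% of all genes tested were called higher and 36.6% lower. Nkx6-1, a homeodomain factor of beta cells, rose from 926 ± 101 to 4469 ± 489 (log2 fold change 2.27) and the zinc finger gene Glis3 from 1402 ± 38.7 to 3812 ± 226 (1.44). Onecut1, a direct activator of Neurog3, fell from 834 ± 31.6 to 1.38 ± 0.518 (−8.47), and 52.8% of its exonic length overlaps other annotation. Sox9, the other of the 2 that fell, went from 1751 ± 199.9 to 69.5 ± 25.3 (−4.70).

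Notch pathway genes were mostly lower. Of 15 genes 13 fell and 2 rose, with a median of −1.64, where 36.6% of all genes tested were called lower. Lfng, a glycosyltransferase that modifies Notch, fell from 763 ± 126 to 49.5 ± 6.55 (log2 fold change −3.91), and Notch2, a receptor gene, from 7092 ± 741 to 481 ± 103 (−3.89). The ligand gene Jag2 rose from 368 ± 28.5 to 929.8 ± 88.0 (1.33). Hes1, named here after its value was seen because it represses Neurog3, fell from 1961 ± 342 to 514 ± 52.1 (−1.92). Mesenchymal and endothelial cells also express Notch genes, and the mesenchyme list fell with them as given above, with 8 of 8 genes lower. The endothelial list moved less, with 3 of 5 genes lower, 2 not called and a median of −0.55. The part of either cell type in the Notch values was not tested.

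Genes of the partners of the bHLH factors were lower in the islets. E proteins pair with Neurog3 and Neurod1 to bind DNA, and Id proteins take the E proteins away. All 7 genes, 3 of E proteins and 4 of Id proteins, were called lower, with a median of −1.25, where 36.6% of all genes tested were called lower. These genes are expressed in many cell types, and the mesenchyme list (8 of 8 lower, median −7.09) and the cell cycle list (6 of 6 lower, median −7.52) fell beside them. The part of either in these values was not tested. Tcf3 fell from 4460.2 ± 629.7 to 1209 ± 30.7 (log2 fold change −1.87) and Id4 from 697 ± 86.3 to 166 ± 25.9 (−2.06). Under each of the 3 other scalings all 7 were again called lower.

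The list of corepressor genes holds partners of Insm1, Nkx2-2 and Myt1. Among the 14, 10 fell, 2 rose and 2 were not called, and the median was −0.50, where 36.6% of all genes tested were called lower. Tle2 fell from 656 ± 95.4 to 342 ± 25.4 (log2 fold change −0.93) and Tle1 from 3771 ± 82.2 to 2153 ± 126 (−0.81), while Gse1 rose from 550.4 ± 47.4 to 1662 ± 197 (1.59), with 27.9% of its exonic length overlapping other annotation. Kdm1a, the demethylase bound by Insm1, was at 7303 ± 1040.3 and 6570.1 ± 359.9 and was not called (adjusted p = 0.28).

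Genes known as Neurog3 targets or markers of endocrine progenitors did not move one way. Of 13, 8 rose and 5 fell, with a median of 0.91, where 36.2% of all genes tested were called higher and 36.6% lower. Pak3, a kinase of cells leaving the cell cycle after Neurog3, rose from 1692 ± 374 to 11799 ± 690.0 (log2 fold change 2.82), and Btg2, an antiproliferative gene, from 1535 ± 295 to 6212 ± 769 (2.03). Cck, the gene of the peptide cholecystokinin, fell from 251 ± 73.0 to 5.69 ± 3.65 (−5.32). The 6 cell cycle genes listed were all lower in the islets, with 2489 to 2846 RPM before birth and 10.1 to 12.1 RPM in the islets, and their part in these values was not tested.

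Islet lineage factors, a list that also holds the reference genes Isl1 and Pax6, mostly rose. Of 11 genes 9 rose and 2 fell, with a median of 1.49, where 36.2% of all genes tested were called higher. Mafa, the factor of mature beta cells, rose from 86.6 ± 44.3 to 5866 ± 367 (log2 fold change 6.17), whereas Pou3f4, a POU factor of alpha cells, fell from 286 ± 61.0 to 115 ± 26.1 (−1.32). Granule and secretion genes, many of them controlled by Neurod1, Insm1 and Rfx6, all rose, 14 of 14, with a median of 5.23, beside the same 36.2%. Scg2, secretogranin 2, rose from 842 ± 323 to 245453 ± 15762 (8.25) and Ptprn, a granule membrane protein, from 228 ± 40.7 to 27353 ± 1281 (6.92). None of the 10 cascade genes rose as much as the median granule gene.

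Serotonin genes were listed because Fev drives them in neurons. Of 7 tested, 5 rose and 2 fell, with a median of 3.03, while Fev itself was not called. Over all genes tested 36.2% were called higher. Tph2, the neuronal tryptophan hydroxylase, rose from 2.52 ± 1.17 to 74.7 ± 4.06 (log2 fold change 4.47) and Gch1, which makes the cofactor of that enzyme, from 641 ± 149 to 12635 ± 548 (4.32). The transporter gene Slc6a4 fell from 185 ± 33.2 to 4.13 ± 2.50 (−5.28). Across these 8 lists the other scalings moved at most 1 gene in or out of a call in each direction and kept the sign of every median. Tph1 did not pass the filter, at 8.19 ± 5.93 and 8.09 ± 2.30.

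**Figure D4:**
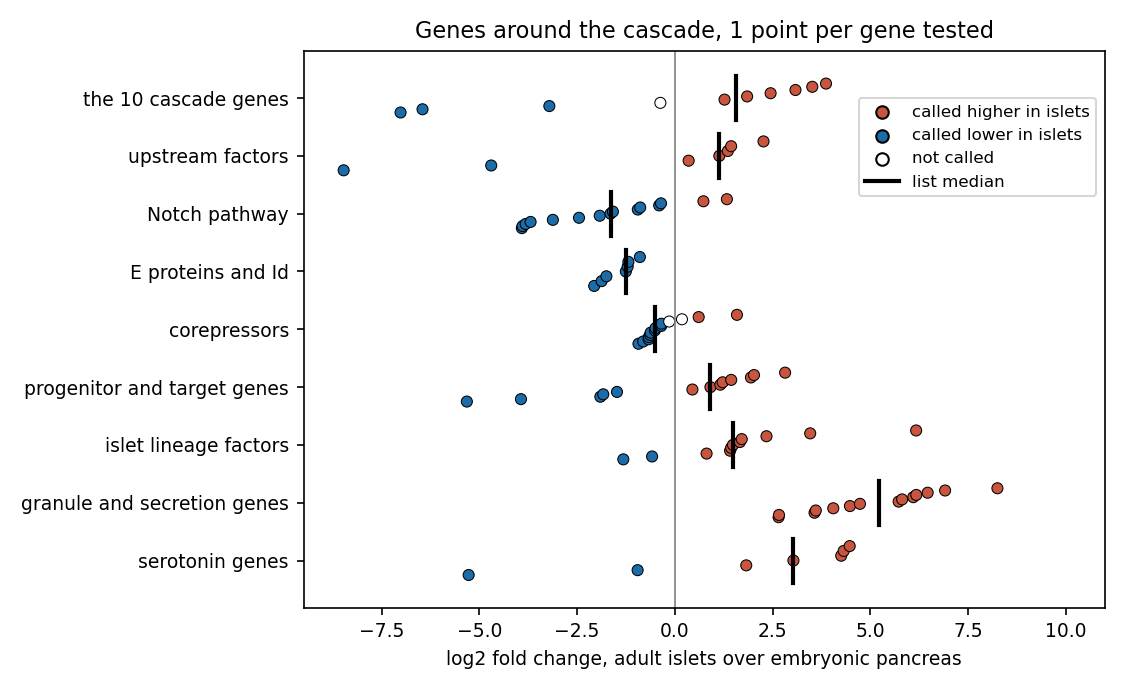
Log2 fold change, islets over embryonic pancreas, of each tested gene in 9 lists, coloured by call, with a black bar at each list's median. Granule genes lie to the right and all 7 E protein and Id genes to the left of 0, while the cascade genes reach from −7.02 (Pax4, a size that depends on the pseudocount) to 3.87 (St18).

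Long noncoding RNAs near the cascade genes were also read. Within 100 kb, 10 lncRNAs lay near 6 of the 10 genes, of which 3 passed the filter and 2 were called. Besides Nkx2-2os, A930019D19Rik, 34266 bases from Insm1, rose from 31.9 ± 1.40 to 78.1 ± 16.8 (log2 fold change 1.24, SE 0.25, adjusted p = 0.0018). 6430503K07Rik, within the span of Nkx2-2 on the other strand, was at 152 ± 14.4 and 169 ± 8.77 and was not called (adjusted p = 0.39). 1700042O05Rik, 1925 bases from Rfx6, had 21 reads in the islets and 0 in the embryonic pancreas, at least 7.91-fold higher. The other 6 were below the filter.

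The protein-coding genes whose pattern over the 6 libraries lay nearest to that of Neurog3, by Euclidean distance of mean-centred log2(value + 1) among 15374 genes, were the histone gene Hist1h1d (0.26), Padi4 (0.27), which encodes a protein-arginine deiminase, and the histone gene Hist1h2bg (0.28). Hist1h1d went from 14941 ± 3448 to 1555 ± 309.5 normalized counts. Padi4 went from 27.3 ± 4.39 to 2.10 ± 1.07, so low in the islets that its distance depends on the pseudocount. Nearest to Neurod1 were Tapbpl (0.09), an MHC class I chaperone gene, Atp6v0e2 (0.16), a proton pump subunit gene, and Camk2n2 (0.16), a kinase inhibitor gene. Tapbpl went from 224 ± 30.9 to 2508 ± 84.7. With 2 groups, such distances mainly rank genes by the size of the difference between them.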

How the data were processed

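The submitters' processing notes name build mm10, TopHat 1.3.2, Cufflinks 1.2.1, CASAVA 1.8.2 and DESeq2. Which program counted reads, and on which annotation, is not given in the sources used here. Library columns of the deposited table hold a normalized signal, which by its values is read counts divided by 1 size factor per library. The authors' mean signal, log2 fold change, linear fold ratio, score and p-values stand in the same deposited table, of which only the log2 fold change and adjusted p were read. The 5 summary entries that name no gene held 40.7 to 54.6% of reads and were left out.

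Values were whole multiples of a step per library within 0.01 reads, which gave back reads for per-length levels and counting intervals (exact, 95%, counting error only). For islet library 2 this step is 0.992, near 1, and its reads rest on the same arithmetic as those of the other libraries. Groups were compared by limma-trend, run in R 4.3.3 with limma 3.58.1, using log2(value + 1) for genes with at least 10 in at least 3 libraries, with Benjamini-Hochberg adjustment over all genes and a threshold of 0.05. A second fit subtracted the mean log2 value of Isl1 and Pax6. The code was tested on simulated data. edgeR 4.0.16 and DESeq2 1.42.0 on the recovered reads are alternatives chosen after seeing the data, with 16233 and 16360 genes called. Exonic lengths and positions are from GENCODE M21 on GRCm38, counted from 1, and 98.0% of gene names matched. A list's genes were named by rule: at most 2 called genes with the largest change in the list's majority direction and 1 in the other, plus the 10 cascade genes, Isl1, Pax6 and the 3 nearest patterns to Neurog3 and to Neurod1. The members, lists and rule were chosen with earlier results of these data known. Sox9, Hes1, Kdm1a, Tph1, genes sharing exons and nearby lncRNAs were named after their values were seen. Lists are described by counts and medians only.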

Additional observations from a re-analysis of the deposited data

How the results depend on the processing

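On the authors' scale 9 of the 10 genes were called, 6 higher and 3 lower, and these 9 kept direction and call under every alternative run: 3 scalings, a pseudocount of 0.1 or of 5, a minimum of 50 or none, a threshold of 0.01, the replicate block, each library left out and both count models. Neurog3 ranged from −3.44 to −3.04 and Neurod1 from 3.28 to 3.63. Fev changed sign under quantile normalization (0.10). When a library was left out, the filter asked for as many libraries as the smaller group held. With 0 and 3 islet reads, the fitted size of Neurod2 (−9.76 to −4.20) and of Pax4 (−9.34 to −5.18) is set by the pseudocount.

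The relative results depend on the reference. Against 5 granule genes (Chga, Chgb, Scg3, Ptprn and Pcsk2) 0 of the 10 genes were higher and 10 were lower, beside 98.6% of genes tested, with Neurod1 at −2.24, Insm1 at −2.67 and St18 at −1.89. Against Pax6 alone 1 was higher and Insm1 was at −0.38. Against Isl1 alone Myt1 was at 0.14 and Rfx6 at 0.74.

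With the replicate number as a replicate block, 9 of the 10 were called on each of both scales. On the authors' scale 15612 of 21653 genes tested were then called, in place of 15770. Against Isl1 and Pax6 93.4% of all genes tested were called without the block, and the share with it is not given here. Libraries with the same number shared only that number: the correlations of their deviations from the group means were 0.04, 0.08 and 0.01, and not every library correlated best with its own number.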

Other observations

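Many relatives of the cascade factors did not pass the filter on low values. Of 28 paralogs listed, 22 had a row and 13 passed the filter, of which 5 were called higher, 6 lower and 2 were not called. With the other 3 scalings 3 to 6 were called higher and 4 to 6 lower. Myt1l, the third gene of the Myt1 family, rose from 74.5 ± 1.21 to 1667 ± 111 normalized counts (log2 change 4.46, adjusted p = 1.1e-08). All 3 genes of that family, Myt1, St18 and Myt1l, were thus called higher in the islets. Over all genes tested 36.2% were called higher and 36.6% lower. Nkx2-3, an NK-class factor of gut and spleen mesenchyme, fell from 447 ± 21.8 to 37.6 ± 2.73 (log2 change −3.54), and the ETS gene Fli1 of endothelial and blood cells from 1067 ± 79.5 to 187 ± 31.1 (log2 change −2.52). Neurog1 had 0 reads before birth and 1 in the islets, and Neurod4 had 8 before birth and 0 in the islets.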
